A study of Mus musculus with 6 samples.

Results

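Voltage-gated sodium and calcium channels are encoded in the mouse by families of pore-forming and accessory subunit genes, and 40 such genes were followed here in the embryonic brain. They were taken by gene name, without regard to any measured value: the sodium channel alpha genes (Scn1a to Scn11a, 10 genes) and beta genes (4 genes), and the calcium channel alpha1 (Cacna1a to Cacna1s, 10 genes), alpha2delta (Cacna2d1 to Cacna2d4, 4 genes), beta (Cacnb1 to Cacnb4, 4 genes) and gamma (Cacng1 to Cacng8, 8 genes) subunits. The 40 are part of 55359 annotated genes listed for every library. Scn4a, Cacna1s and Cacng1, the skeletal muscle isoforms, were kept apart, which left 37.

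RNA was sequenced from whole brain of mouse embryos at E18.5, shortly before birth, that were either wild type for PME-1 (WT) or carried the PME-1 S156A mutation (S156A). PME-1, the product of Ppme1, is an esterase that demethylates the catalytic subunit of protein phosphatase 2A, and S156 is the serine of its active site. Each group had 3 libraries, and each library was made from 3 brains combined in 1 tube, so the spread between libraries is a spread between pools and not between single embryos. The labels give no strain, sex or zygosity, and no treatment. The libraries held an estimated 3.15 to 4.14 aligned gigabases and listed 18191 to 19270 genes at 1 TPM or more, where TPM is the share of a library's transcripts that a gene has, corrected for length. Ppme1 itself was at 92.4, 95.0 and 74.0 TPM in the WT pools, against 72.4, 89.0 and 82.7 TPM in the S156A pools (log2 difference -0.09, SE 0.14), and a point mutation leaves no mark in such a level, so the genotype labels could not be checked this way.

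An alpha or alpha1 subunit forms the ion pore and its voltage sensor. Sodium channel beta subunits are adhesion molecules that set gating and placement of the pore at the axon initial segment and node. Calcium channel beta and alpha2delta subunits bring the pore to the membrane, and most gamma subunits of brain serve as auxiliary proteins of AMPA-type glutamate receptors. In the rodent brain Scn3a and Scn2a are the pore genes of embryonic and newborn neurons, while Scn1a and Scn8a gain weight after birth.

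Promoter windows, 250 bases before to 50 bases after a transcript start, were found in RefSeq (GRCm38.p6) for 30 of the 40 genes. Those of Cacnb1 (chr11:98022578-98022877, minus strand) and Cacna2d2 (chr9:107399630-107399929, plus strand) are shown because both genes were lower in every S156A library. Scn2a (chr2:65668436-65668735, plus strand) is shown as a main pore gene of this stage, and Cacna1s (chr1:136052561-136052860, plus strand) as a muscle gene whose level followed the muscle RNA of a library. Each runs 5′ to 3′ on the strand of its gene, and capitals mark GC boxes (GGGCGG or its complement) in Cacnb1 and Cacna2d2, a TATA box (TATAAA) in Scn2a and an E-box (CAGCTG) in Cacna1s.
Cacnb1: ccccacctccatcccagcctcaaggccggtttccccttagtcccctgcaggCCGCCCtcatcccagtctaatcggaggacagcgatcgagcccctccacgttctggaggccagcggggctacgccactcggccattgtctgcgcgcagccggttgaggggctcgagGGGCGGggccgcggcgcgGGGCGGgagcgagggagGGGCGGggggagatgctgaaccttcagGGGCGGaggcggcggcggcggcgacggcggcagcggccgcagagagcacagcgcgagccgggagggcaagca
Cacna2d2: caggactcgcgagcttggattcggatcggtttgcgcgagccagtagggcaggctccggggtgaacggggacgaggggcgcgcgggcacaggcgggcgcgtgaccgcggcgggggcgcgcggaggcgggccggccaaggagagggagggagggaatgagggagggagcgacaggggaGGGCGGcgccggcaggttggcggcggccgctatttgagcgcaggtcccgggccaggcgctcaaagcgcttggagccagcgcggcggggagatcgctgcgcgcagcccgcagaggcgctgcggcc
Scn2a: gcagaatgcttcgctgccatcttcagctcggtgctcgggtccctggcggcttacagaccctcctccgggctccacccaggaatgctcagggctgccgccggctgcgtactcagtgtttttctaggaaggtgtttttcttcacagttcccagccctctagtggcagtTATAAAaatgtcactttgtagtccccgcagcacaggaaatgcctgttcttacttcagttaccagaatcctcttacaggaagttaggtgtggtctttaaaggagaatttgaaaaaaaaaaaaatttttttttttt
Cacna1s: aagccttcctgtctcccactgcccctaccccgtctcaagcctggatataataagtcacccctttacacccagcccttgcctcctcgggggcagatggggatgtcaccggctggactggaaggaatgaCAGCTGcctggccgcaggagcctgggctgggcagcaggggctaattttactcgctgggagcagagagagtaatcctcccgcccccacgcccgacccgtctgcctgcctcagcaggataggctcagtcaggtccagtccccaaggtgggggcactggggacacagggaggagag
The Cacnb1 window shown had 5 GC boxes and a GC content of 73.7%, the Cacna2d2 window 1 GC box and 75.7%, and the Scn2a window shown no GC box and 47.7%. Cacnb1 and Scn2a each have another window in the table, and the ones shown were chosen because they hold the marked motif. The other Cacnb1 window had 0 GC boxes and a GC content of 59.3%, and the other Scn2a window had no TATA box and 33.0%. Over the 41 windows of the channel genes, read on both strands, a GC box was in 39.0% against 35.9% of 32544 promoter windows of all genes. The E-box was in 31.7% against 16.4%, and the TATA box in 4.9% against 13.6%. The cyclic AMP response element TGACG was in 14.6% against 20.9%. Of both ends of the binding motif of Rest, a repressor of neuronal genes outside neurons, CAGCACC was in 0 of 41 windows (7.2% of all) and GGACAGC in 4.9% (6.6% of all). The median GC content was 59.3% against 53.0%. A match of letters is a description of the window and shows no binding.

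No channel gene passed the test between genotypes, yet nearly all were at a lower level in S156A. Of the 40 genes, 33 had a mean of 1 TPM or more and were tested with limma on log2(TPM + 1), and 0 had a Benjamini-Hochberg adjusted p under 0.05, beside 0.159% of the 18893 genes tested (0.0741% lower and 0.0847% higher). Of the channel genes named here, Cacnb1 had the lowest adjusted p (0.17). The log2 difference was below 0 for 31 of the 33 (93.9%) against 38.3% of all tested genes, with a median of -0.29 against 0.09. At an unadjusted p under 0.05, 7 genes were lower in S156A (21.2%; 5.5% of all tested genes) and 0 higher (8.41% of all). For 7 genes every S156A library lay below every WT library (21.2%; 7.05% of all), and for 0 the reverse held (13.7% of all). The 7 at an unadjusted p under 0.05 became 4 without WT replicate 2, S156A replicate 1 or S156A replicate 3, and 11 without S156A replicate 2. Without WT replicate 3 and S156A replicate 1, whose share in muscle RNA is given below, it was 5, and 31 of 33 had a difference below 0. Since these genes share libraries and cells, their counts are not independent observations.

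**Figure D1:**
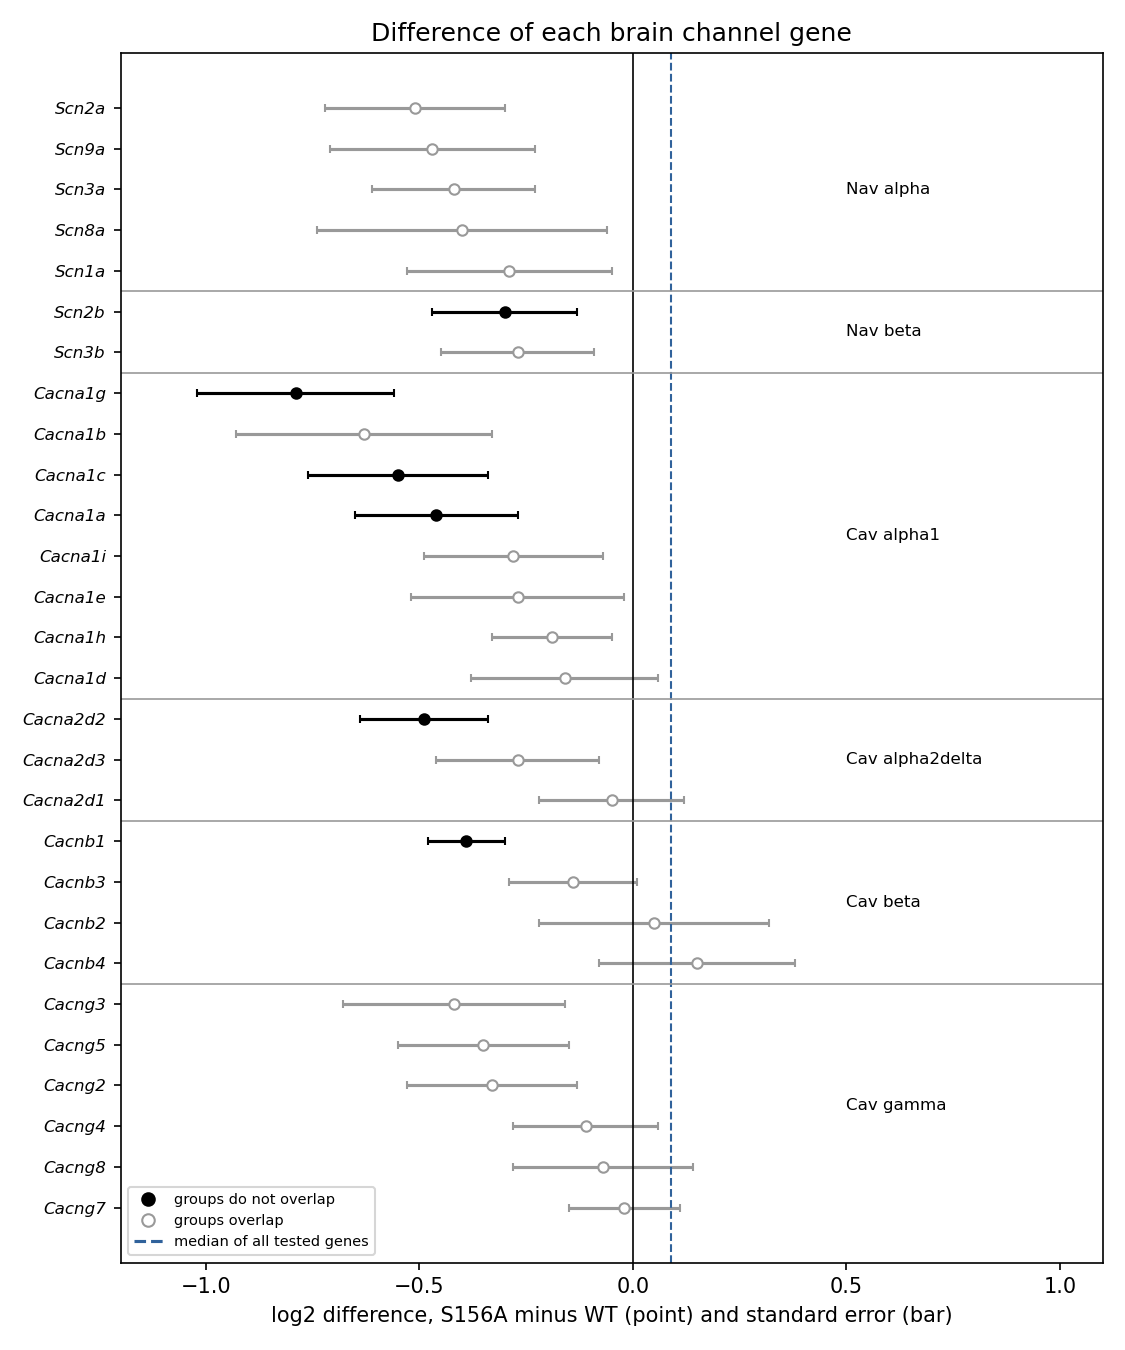
Log2 difference between S156A and WT (horizontal axis, log2 of TPM + 1) for the tested channel genes named here, grouped by subunit family; points are estimates, bars their standard errors, and Cacna1s, Cacng1 and Cacng6, with standard errors near 1, are left out. Estimates run from -0.79 (Cacna1g) to 0.15 (Cacnb4), and most lie left of 0.

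The sodium channel pore genes of this brain were led by Scn3a and Scn2a, which together gave most of the family's RNA. Scn3a was at 48.0, 39.1 and 34.4 TPM in the WT pools, in the order of replicates 1 to 3, against 25.1, 37.1 and 28 TPM in the S156A pools. Its highest S156A library, replicate 2, lay between the WT libraries, so the groups overlapped. The log2 difference was -0.42 (SE 0.19; limma unadjusted p = 0.057, adjusted p = 0.38). Scn2a was at 40.7, 32.8 and 29.9 TPM in the WT pools, against 19.2, 31.5 and 22.2 TPM in the S156A pools. Again only S156A replicate 2 reached the WT range, and the log2 difference was -0.51 (SE 0.21; limma unadjusted p = 0.045, adjusted p = 0.35).

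Within the alpha family the mean shares of the genes in TPM differed between genotypes by no more than the spread between libraries. Scn3a made up 36.4% ± 2.41 of the summed alpha TPM, Scn4a included, in WT and 36.5% ± 3.30 in S156A (SD, n = 3 each), and Scn2a 31.0% ± 1.64 and 29.4% ± 4.29. The adult pore genes were already present, Scn8a at 12.6% ± 2.80 and 13.9% ± 7.03 and Scn1a at 8.17% ± 0.99 and 8.80% ± 0.90. Scn9a, best known from sensory and sympathetic neurons, made up 7.77% ± 0.68 and 7.27% ± 0.97. By read depth, a second measure described below, Scn3a made up 37.5% ± 2.75 and 41.6% ± 1.29, and Scn2a 27.5% ± 1.94 and 23.9% ± 3.12. There the means of both genes differed by more than either SD. The summed level of the 10 genes was 111 ± 12.3 TPM in the WT pools, against 81.8 ± 9.55 TPM in the S156A pools (SD, n = 3 each), and the lowest WT library (102 TPM) lay above the highest S156A library (92.8 TPM).

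Scn8a, the pore gene of mature initial segments and nodes, depended on 1 library when measured in TPM. It was at 11.7, 15.1 and 14.4 TPM in the WT pools, against 13.7, 5.35 and 13.7 TPM in the S156A pools. Only S156A replicate 2 was low, and the log2 difference of -0.40 (SE 0.34) became 0.003 without that library. By read depth, the mean number of reads over each base per aligned gigabase, Scn8a was at 2.04, 1.88 and 1.62 in WT and 1.41, 1.56 and 1.33 in S156A. There all S156A libraries were below all WT libraries and replicate 2 was the highest of them. The log2 difference, from read depth rescaled as described below, was -0.29 (SE 0.17, limma unadjusted p = 0.13, adjusted p = 0.45). In TPM the log2 differences of Scn9a and Scn1a were -0.47 and -0.29, with overlapping groups for both.

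Scn3a, Scn2a, Scn1a, Scn9a and Scn7a lie side by side on chromosome 2 (65287462 to 66615258 in the coordinates of the files). Their mean levels over all 6 libraries, in that order, were 35.3, 29.4, 8.19, 7.33 and 0.82 TPM. Scn10a and Scn11a are neighbours on chromosome 9 (119437522 to 119654522), with 0.86 and 0.45 TPM.

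Scn3b, a beta subunit gene and the most abundant sodium channel gene of all, did not separate the genotypes. It was at 154, 157 and 114 TPM in the WT pools, against 96.5, 138 and 116 TPM in the S156A pools (log2 difference -0.27, SE 0.18; limma adjusted p = 0.54). Scn2b, whose product binds the pore through a disulphide bond, was at 11.3, 10.7 and 9.21 TPM in the WT pools, against 8.97, 8.28 and 7.48 TPM in the S156A pools. Its groups did not overlap, though the gap of 8.97 to 9.21 TPM was narrow, and the log2 difference was -0.30 (SE 0.17; limma unadjusted p = 0.13, adjusted p = 0.49). Scn4b, a beta gene and a neighbour of Scn2b on chromosome 9, was under the level tested, at 0.25 to 1.19 TPM.

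As a share of the summed beta TPM, Scn3b took 76.0% ± 1.19 in WT and 80.2% ± 4.57 in S156A (SD, n = 3 each), with overlap.

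The calcium channel pore genes were led by those of T-type channels, which open at low voltage. Cacna1g, Cacna1h and Cacna1i together made up 65.1% ± 5.70 of the alpha1 TPM of WT brain and 65.9% ± 3.48 of S156A brain (SD, n = 3 each, Cacna1s left out). The P/Q, N and R type genes of transmitter release (Cacna1a, Cacna1b, Cacna1e) made up 27.9% ± 5.53 and 26.3% ± 3.80. The L-type genes Cacna1c, Cacna1d and Cacna1f took 7.05% ± 0.22 and 7.81% ± 0.79. All 8 tested brain alpha1 genes had a log2 difference below 0, with a median of -0.37, and 3 of them had an unadjusted p under 0.05.

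Cacna1g had the largest log2 difference of the 33 genes in TPM. It was at 57.4, 97.5 and 55.0 TPM in the WT pools, against 40.5, 42.4 and 33.2 TPM in the S156A pools. WT replicate 2 stood far above the other libraries, and all S156A libraries lay below all WT libraries. The log2 difference was -0.79 (SE 0.23; limma unadjusted p = 0.010, adjusted p = 0.22), and it ranged from -0.94 to -0.53 with single libraries left out. By read depth per gigabase WT replicate 2 did not stand apart. Cacna1g was there at 16.4, 16.1 and 14.7 in WT and 11.5, 10.9 and 9.19 in S156A. Cacna1h, the T-type gene with a similar level, was at 63.0, 57.1 and 54.6 TPM in the WT pools, against 52.9, 57.7 and 43.0 TPM in the S156A pools, with overlap (log2 difference -0.19, SE 0.14; limma adjusted p = 0.58). As a share of the alpha1 TPM, Cacna1s again left out, Cacna1h was 27.8% ± 3.59 in WT and 34.5% ± 1.57 in S156A (SD, n = 3 each), without overlap, and Cacna1g was 32.7% ± 7.64 and 26.1% ± 1.69, with overlap. By read depth, Cacna1s included, Cacna1g was 29.4% ± 0.60 in WT and 25.7% ± 0.49 in S156A. Cacna1h was 28.3% ± 1.70 and 33.4% ± 0.85 there. In read depth the means of both genes differed by more than either SD.

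Of the release-type genes, Cacna1a, the P/Q-type pore, was at 15.4, 11.9 and 12.6 TPM in the WT pools, against 8.46, 11.2 and 8.58 TPM in the S156A pools. Its groups did not overlap, with S156A replicate 2 close to the WT range, and the log2 difference was -0.46 (SE 0.19; limma unadjusted p = 0.042, adjusted p = 0.34). Cacna1b, the N-type pore, was at 54.6, 37.1 and 28.5 TPM in the WT pools, against 21.3, 35.7 and 19.5 TPM in the S156A pools. These groups overlapped, and the log2 difference was -0.63 (SE 0.30; limma unadjusted p = 0.069, adjusted p = 0.40). For Cacna1e, the R-type pore, the log2 difference was -0.27 (SE 0.25).

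The L-type genes were rarer. Cacna1c was at 4.98, 6.23 and 5.95 TPM in the WT pools, against 3.45, 3.92 and 3.34 TPM in the S156A pools, with no overlap (log2 difference -0.55, SE 0.21; limma unadjusted p = 0.031, adjusted p = 0.32). Cacna1d had a log2 difference of -0.16 (SE 0.22), and Cacna1f, the retinal L-type gene, was at 0.042 to 0.30 TPM and was not tested. Cacna1c overlaps Dcp1b on the opposite strand, and Dcp1b had the higher mean level (14.9 against 4.64 TPM). The library kit keeps strand, per the labels, but no source used here gives the strand setting of the authors' quantification, so reads of such pairs may be mixed. The same holds for opposite-strand transcripts over Cacna1a, Cacna1d, Cacnb1, Cacnb2, Cacnb4, Cacng2, Cacng4, Cacng8 and Scn3b, and for Gm44256 and Gm23450, which lie within Cacng7 and Cacng8 on the same strand.

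Of the alpha2delta genes, whose products are glycoproteins on the outer face of the membrane, Cacna2d2 was lower in every S156A library and Cacna2d1 was not. Cacna2d2 was at 48.6, 47.0 and 43.8 TPM in the WT pools, against 27.6, 39.7 and 32.3 TPM in the S156A pools. No S156A library reached the WT range, and the log2 difference was -0.49 (SE 0.15; limma unadjusted p = 0.014, adjusted p = 0.24). Cacna2d1, a receptor of gabapentin and in TPM the most abundant gene of the family, was at 51.7, 52.1 and 56.0 TPM in the WT pools, against 53.6, 63.8 and 40 TPM in the S156A pools (log2 difference -0.05, SE 0.17; limma adjusted p = 0.93). The Cacna2d2 share of the family was 40.8% ± 1.56 in WT and 34.2% ± 3.94 in S156A (SD, n = 3 each), without overlap. By read depth the order was the other way round, with Cacna2d2 at 49.5% ± 2.41 of the family in WT and 42.8% ± 0.39 in S156A and Cacna2d1 at 31.8% ± 2.68 and 37.9% ± 1.91 (SD, n = 3 each). Cacna2d3 had a log2 difference of -0.27 (SE 0.19), and Cacna2d4, a retinal gene, was at 0.036 to 0.068 TPM and was not tested.

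Of the calcium channel beta subunits, which bind the pore inside the cell, Cacnb1 showed the tightest groups. Cacnb1 was at 81.3, 85.4 and 81.2 TPM in the WT pools, against 62.5, 65.3 and 60.6 TPM in the S156A pools. The lowest WT library (81.2 TPM) lay well above the highest S156A library (65.3 TPM), and the libraries of a group lay close together. S156A stood at 76.0% of WT, and the log2 difference was -0.39 (SE 0.09; limma unadjusted p = 0.0038, adjusted p = 0.17), with a range of -0.42 to -0.37 over single libraries left out. Cacnb1 is also the beta subunit of skeletal muscle channels. WT replicates 1 and 3, at the lowest and highest muscle RNA of their group, stood at 81.3 and 81.2 TPM. Per 1000 TPM of the pan-neuronal markers given below, Cacnb1 was at 9.82, 11.2 and 13.4 in WT and 13.8, 11.1 and 10.1 in S156A. On that scale the library richest in muscle RNA was the highest of each group. The same libraries had the lowest marker sums of their groups (6067 and 4515 TPM). A lower sum raises every such ratio, so this order cannot show a part of muscle. The part of muscle in its level was not tested.

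Cacnb3, the most abundant beta gene in TPM, was at 212.2, 205.1 and 150.3 TPM in the WT pools, against 176.6, 156.5 and 176.4 TPM in the S156A pools, with overlap (log2 difference -0.14, SE 0.15; limma adjusted p = 0.72). By read depth Cacnb1 had the larger share of the family in WT, 47.4% ± 3.40 against 43.3% ± 3.63 for Cacnb3, and Cacnb3 in S156A, 45.7% ± 0.81 against 41.7% ± 1.81 (SD, n = 3 each). Cacnb4 (log2 difference 0.15, SE 0.23) and Cacnb2 (0.05, SE 0.27) were the 2 tested genes with a positive difference. That of Cacnb4 became -0.044 without S156A replicate 2, and that of Cacnb2 became -0.027 with a trimmed mean of M values and -0.051 after quantile normalization.

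The gamma subunit genes included some of the most abundant channel genes, and none of them separated the genotypes by TPM level. Cacng4 was at 175.0, 164.4 and 133.6 TPM in the WT pools, against 115.8, 168.7 and 155.7 TPM in the S156A pools (log2 difference -0.11, SE 0.17; limma adjusted p = 0.82). Cacng7, an AMPA receptor auxiliary subunit with a similar level, had a mean of 142 ± 18.3 TPM in the WT pools, against 140.0 ± 14.3 TPM in the S156A pools (SD, n = 3 each; log2 difference -0.02, SE 0.13). Cacng8 was at 47.2 ± 6.11 and 45.6 ± 11.3 TPM (log2 difference -0.07, SE 0.21). Differences of Cacng4, Cacng7 and Cacng8 turned above 0 in some of the fits that left out a library, and those of Cacng8 also without the 2 libraries rich in muscle RNA. Cacng2 (stargazin), Cacng3 and Cacng5 were lower on average, with log2 differences of -0.33, -0.42 and -0.35, and their groups overlapped.

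**Figure D2:**
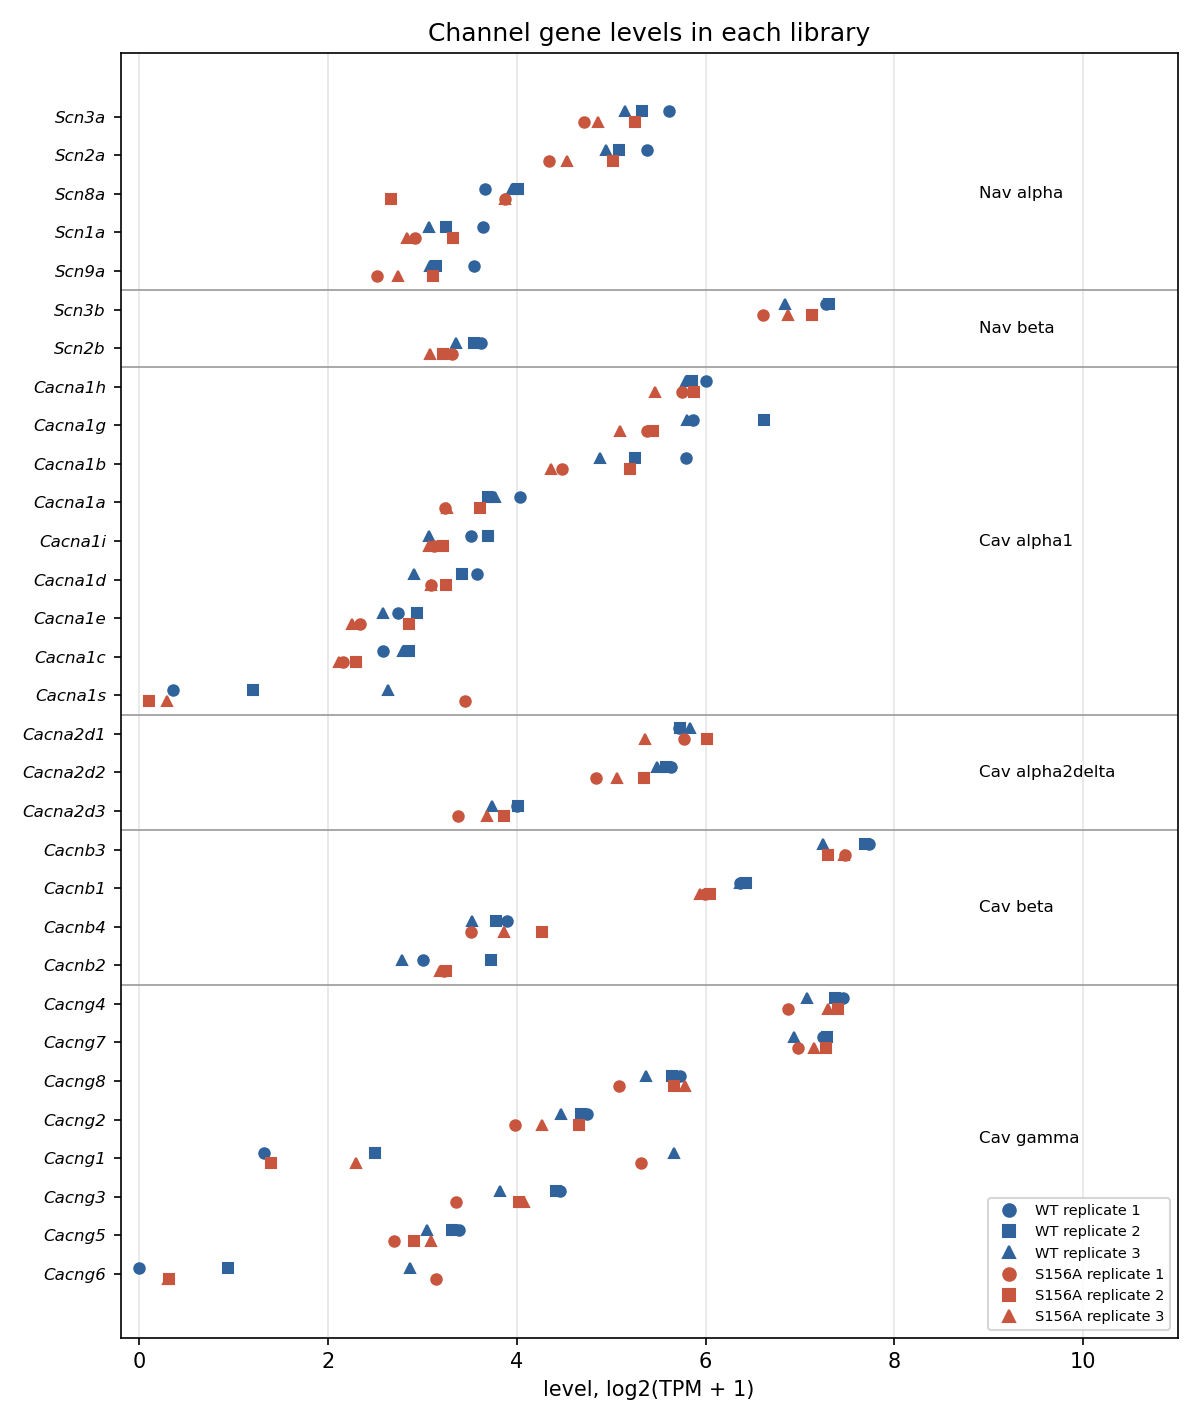
Level of the tested channel genes named here, log2(TPM + 1) on the horizontal axis, in the 6 libraries; colour gives the genotype and marker shape the replicate. Cacnb3, Cacng4, Cacng7 and Scn3b are the most abundant, and most genes lie within a narrow range over the libraries except the muscle isoforms and Cacng6.

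The muscle isoforms varied between libraries by far more than by genotype. Cacng1, the gamma subunit of the skeletal muscle channel, was at 1.5, 4.64 and 49.8 TPM in the WT pools, against 38.9, 1.62 and 3.91 TPM in the S156A pools. WT replicate 3 and S156A replicate 1 were high, and the log2 difference was -0.16 (SE 1.32). Cacna1s, the pore of that channel, was at 0.28, 1.30 and 5.23 TPM in the WT pools, against 9.96, 0.076 and 0.23 TPM in the S156A pools (log2 difference -0.11, SE 0.98). Scn4a, the muscle sodium channel pore, had listed values of 0, 0.20 and 1.42 TPM in the WT pools, against 1.41, 0.14 and 0.097 TPM in the S156A pools and was not tested.

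Cacng6, close to Cacng1 in sequence family, followed the same libraries at 0, 0.92 and 6.32 TPM in the WT pools, against 7.83, 0.25 and 0.23 TPM in the S156A pools. Scn10a, Scn11a and Scn7a, genes known from sensory ganglia and glia, were also highest in WT replicate 3 and next in S156A replicate 1, at up to 2.64, 1.12 and 1.96 TPM. A list of 15 skeletal muscle markers summed to 26.8, 998 and 7893 TPM in the WT pools, against 8437, 77.7 and 64.7 TPM in the S156A pools, and 1 of the 15 was listed at 0 in a library. A list of sensory ganglion markers summed to 180, 136 and 268 TPM in the WT pools, against 147, 111 and 94.2 TPM in the S156A pools. What these tissues contribute to the channel values was not tested beyond the fits without these libraries.

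**Figure D3:**
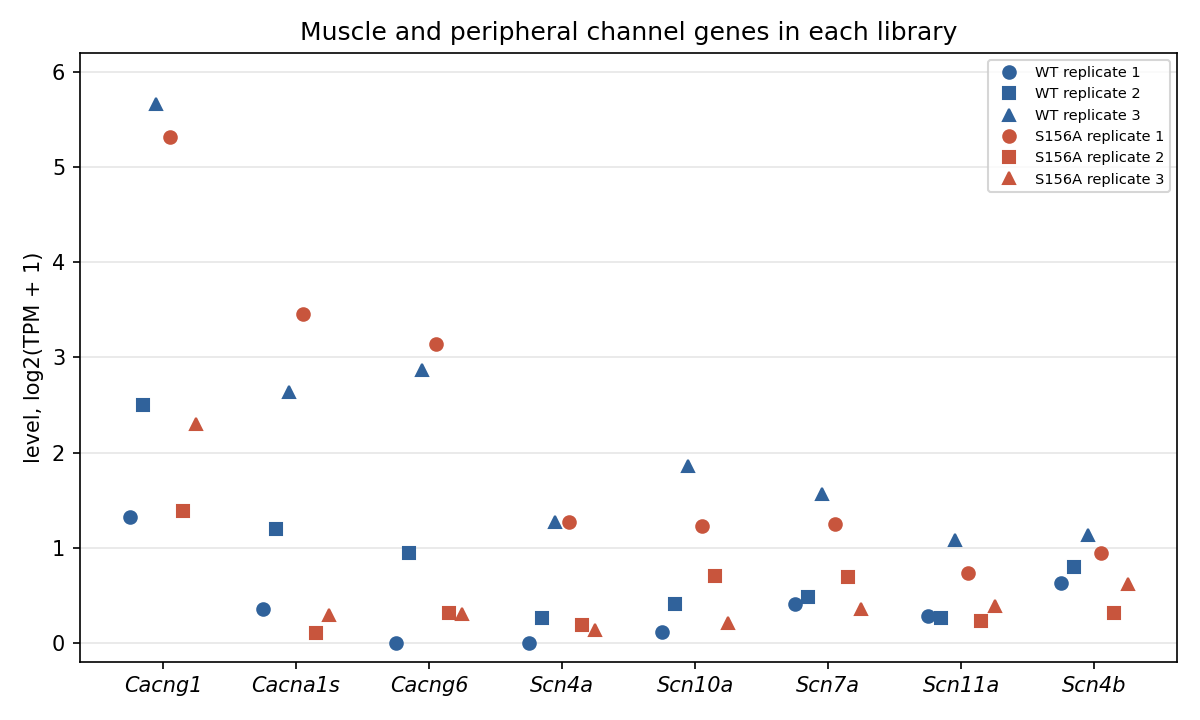
Levels of the muscle isoforms Cacng1, Cacna1s and Scn4a and of 5 other rare channel genes, log2(TPM + 1) on the vertical axis, in the 6 libraries; colour gives the genotype and marker shape the replicate. WT replicate 3 and S156A replicate 1 stand above the other libraries of their groups for each gene shown.

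Lower channel RNA in whole brain went with lower RNA of neurons in general. Summed over the 37 genes, channel RNA was 1411, 1403 and 1132 TPM in the WT pools, against 1007, 1214 and 1085 TPM in the S156A pools, a mean of 83.8% of WT, with overlap. The summed TPM of 12 pan-neuronal markers was 8286, 7651 and 6067 in WT and 4515, 5900 and 6004 in S156A, a mean of 74.6% of WT, without overlap but with a narrow gap. Of the 12 markers 10 had a log2 difference below 0, 8 of them at an unadjusted p under 0.05, and 0 passed the test; over all tested genes these shares were 38.3%, 5.5% and 0.159%. The log2 difference was above 0 for 8 of 8 microglial markers, of which 4 passed the test, and for 7 of 10 of the oligodendrocyte lineage, of which 1 passed. It was above 0 for 5 of 8 astrocyte markers, of which 1 passed, and for 8 of 8 of radial glia and progenitors, of which 0 passed, beside 11657 of all 18893 tested genes above 0 and 0.0847% called higher. The part of cell makeup in the channel values was not tested. In bulk tissue, fewer neurons and less channel RNA per neuron cannot be told apart.

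Set against the neuronal markers, in no channel family did all S156A libraries lie below all WT libraries. Channel RNA was 170, 183 and 187 TPM per 1000 TPM of pan-neuronal markers in WT and 223, 206 and 181 in S156A. The sodium channel alpha genes were at 15.1 ± 1.38 and 15 ± 1.86, the beta genes at 25.4 ± 1.32 and 26.7 ± 2.12, and the brain calcium channel alpha1 genes at 29.0 ± 2.16 and 27.6 ± 5.86 (SD, n = 3 each), all with overlap. The gamma genes, Cacng1 left out, were at 52.3, 55.4 and 56.6 in WT and 68.9, 70.9 and 65.4 in S156A. The calcium channel beta genes were at 38.0, 41.2 and 40.9 in WT and 57.1, 42.1 and 43.1 in S156A. In these 2 of the 6 families all S156A libraries lay above all WT libraries on this scale, for the beta genes by a narrow gap. The alpha2delta genes were at 15.8 ± 2.40 and 18 ± 3.44 (SD, n = 3 each), with overlap. Of single genes, Cacnb1 was at 11.5 ± 1.81 and 11.7 ± 1.94 and Cacna2d2 at 6.41 ± 0.72 and 6.07 ± 0.68. Cacna1g was at 9.58 ± 2.94 and 7.23 ± 1.73 (75.5% of WT), and Cacna1c at 0.80 ± 0.19 and 0.66 ± 0.10 (82.9% of WT). Scn2a, Cacna1a and Scn2b stood at 94.0%, 94.5% and 108.3% of WT. The groups of all these genes overlapped on this scale. The marker sum rests mostly on Tubb3, Uchl1, Stmn2 and Gap43, at means of 2263, 1502, 1198 and 1186 TPM in WT. In S156A they were at 1736, 1075, 833 and 744 TPM. Map2 and Dcx had log2 differences above 0 (0.32 and 0.34), so the ratios depend on the markers chosen. These ratios were chosen with the levels known and carry no test.

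**Figure D4:**
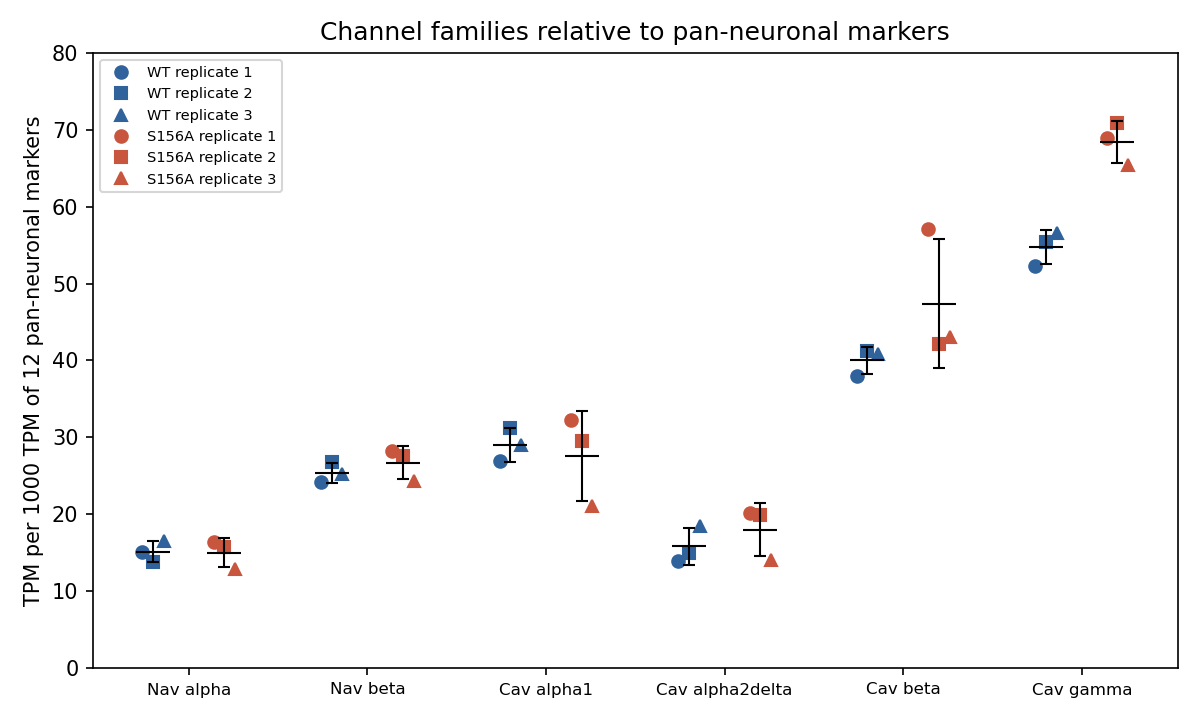
Summed TPM of each channel family per 1000 summed TPM of 12 pan-neuronal markers (vertical axis, starting at 0), with the muscle isoforms left out; coloured symbols are libraries, black bars the mean and SD of 3 libraries. The gamma genes lie at 52.3 to 56.6 in WT and 65.4 to 70.9 in S156A, the beta genes of calcium channels at 38.0 to 41.2 and 42.1 to 57.1, and the groups of the other 4 families overlap.

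Read depth, deposited beside TPM, gave a second reading of all the genes. Library values and overlap of groups are given per aligned gigabase. For the fits, read depth was instead rescaled to the same sum in every library. The level of 1 for testing and the log2 of the value + 1 apply to that rescaled depth. By these fits 35 channel genes were tested, 34 had a log2 difference below 0, and the median was -0.28. An unadjusted p under 0.05 was reached by 7 lower genes (5.69% of all tested genes) and 0 higher ones (9.76% of all). Groups without overlap were found for 12 genes with S156A lower (34.3%; 9.07% of all) and for 0 with S156A higher (13.8% of all). The test was passed by 0 (0.191% of all, 0.121% lower and 0.0704% higher). Cacnb1, Cacna1g, Cacna2d2, Cacna1a, Cacna1b and Scn2a were among the 7. Cacnb1 was at 18.4, 19.6 and 18.2 reads per base and gigabase in WT and 14.0, 13.7 and 14.3 in S156A (log2 difference -0.39, SE 0.09; limma adjusted p = 0.15).

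TPM and read depth disagreed for a few genes. Cacna1c had a log2 difference of -0.16 from read depth, with overlap (limma unadjusted p = 0.44), in place of -0.55, and Cacna1g had -0.55 in place of -0.79. Cacna1b had -0.60 without overlap (limma unadjusted p = 0.0063, adjusted p = 0.16), and Cacna1a -0.63 (limma unadjusted p = 0.0036, adjusted p = 0.14). Cacna2d3, Cacng2, Scn8a, Scn9a and Scn2a, whose groups overlapped in TPM, did not overlap in read depth. Cacnb2 stood at 0.070 to 0.13 in read depth per gigabase, although its TPM were 5.86 to 12.2. Its 3 S156A libraries lay below its 3 WT libraries, and its rescaled depth was under the level tested. Read depth was added as a measure after the data had been seen.

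**Figure D5:**
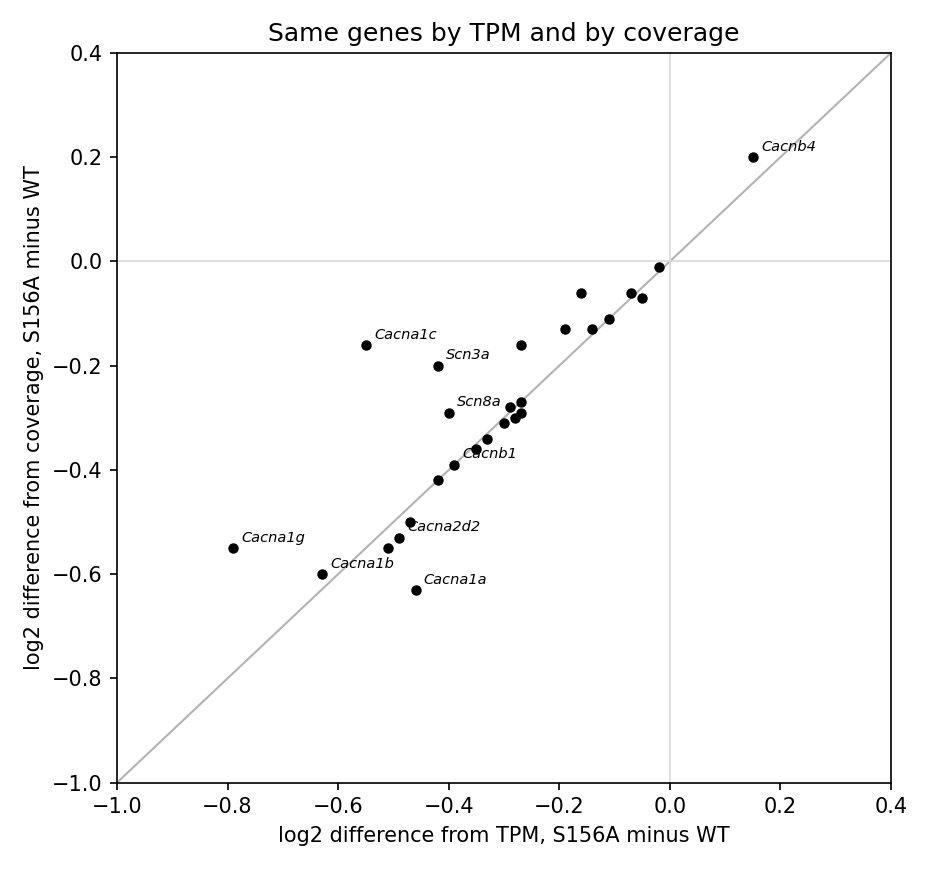
Log2 difference between S156A and WT from TPM (horizontal axis) and from read depth per base (vertical axis) for the brain channel genes tested on both scales; the grey diagonal marks equal values. Cacnb1 and Cacna2d2 lie near the diagonal, while Cacna1c is nearer to 0 by read depth (-0.16) than by TPM (-0.55).

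The tables also list loci assembled from the reads, and the TPM of the longest locus over a gene on its strand gave another reading. By these, Cacna1b was at 76.6, 64.6 and 55.1 TPM in the WT pools, against 33.6, 51.3 and 34.9 TPM in the S156A pools, without overlap. Cacnb2 was at 12.7 ± 1.08 TPM in the WT pools, against 8.12 ± 0.37 TPM in the S156A pools (SD, n = 3 each), also without overlap, and the sums over all its loci did not overlap either. Scn2b, Cacnb1, Cacna1g and Cacna2d2, each with 1 locus in every library, were lower in every S156A library here too. Cacna1a, also with 1 locus in every library, overlapped here, unlike in TPM and read depth. It was at 53.0, 42.9 and 42.8 TPM in the WT pools, against 28.7, 43.4 and 31.7 TPM in the S156A pools. Cacna1c overlapped too. No share over all genes is given for this reading. These genes were picked with their values known, and the values were not tested. Cacnb2 was split into 5, 3 and 5 loci in the WT pools and 4, 6 and 7 in the S156A pools. Scn1a and Scn9a were also split into more loci in some libraries than in others. Their longest loci were lower in every S156A library, but the sums over their loci overlapped, and they are not read this way.

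Genes that work with the channels were taken from lists and showed no called gene either. Their counts stand beside 38.3% of all tested genes with a log2 difference below 0, and 5.5% lower and 8.41% higher at an unadjusted p under 0.05. Of 18 partners of sodium channels at the axon initial segment and node, 9 had a log2 difference below 0 and the median was -0.00, with 4 lower and 1 higher at an unadjusted p under 0.05. The 4 were Cntnap1 (-1.25), a paranodal adhesion protein, Cntn1 (-0.82), its binding partner, Fgf13 (-0.82), an intracellular sodium channel binding factor, and Sptbn4 (-0.49), the spectrin of the initial segment. Cntnap1 was at 15.3, 15.5 and 14.5 TPM in the WT pools, against 7.04, 6.23 and 4.35 TPM in the S156A pools, far apart, and its limma adjusted p was 0.077. The 1 higher gene was Nrcam (0.85), a cell adhesion molecule, named after its values were seen.

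Of 18 calcium channel partners 15 had a log2 difference below 0, with a median of -0.44 and 4 genes lower at an unadjusted p under 0.05: Calm3 (-0.57), a calmodulin gene, Stac (-0.72), an adaptor of L-type channels, Akap5 (-0.50), a kinase anchor, and Camk2b (-0.64), a calmodulin-dependent kinase. Of the related cation channels 9 of 11 were tested and 6 had a difference below 0, with Hcn2 (-0.88) and Hcn3 (-0.61), pacemaker channels, and Nalcn (-0.73) and Unc80 (-0.77), parts of the sodium leak channel, lower at an unadjusted p under 0.05. Of 11 AMPA receptor partners of the gamma subunits 10 had a difference below 0, 2 of them at an unadjusted p under 0.05, Gsg1l (-0.61) and the scaffold Dlg4 (-0.37).

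Of 11 regulators of sodium channel transcription and splicing, 6 had a difference below 0 and 5 above. Rbfox3 (-0.37), a splicing factor and marker of neurons, and Celf4 (-0.48), an RNA-binding protein, were lower at an unadjusted p under 0.05. Rcor2 (0.40), a corepressor, and Ptbp1 (0.48), a splicing repressor of progenitors, were higher. The log2 difference of Rest itself, whose product binds the paired motif counted above, was 0.48 (SE 0.30; limma adjusted p = 0.51), and it was named for that count.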

How the data were processed

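Total RNA from pools of 3 whole brains was prepared with an MGIEasy kit that keeps strand, per the labels' protocols. Per the submitters' processing notes, StringTie 2.1.5, HISAT2 2.2.1 and Trim Galore 0.6.6 were used. The deposited tables hold, per the file headers, coverage (read depth per base), FPKM and TPM for annotated genes and for assembled loci. No counts are given, so no counting intervals apply. Each depth in gigabases is an estimate, the most frequent value of coverage divided by FPKM over annotated rows. In each library 13.2% to 13.8% of the rows used held that value, and the values per gigabase rest on it. The notes name a human build (hg38), while the rows carry mouse identifiers; no source used here names the mouse build. Of the 40 channel genes 0 start within 1000 bases of their GRCm38 position, so coordinates are as in the files and the GRCm38.p6 promoters were not placed on them.

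Annotated rows were used, with rows sharing a gene identifier summed. Tested were genes of mean TPM 1 or more, on log2(TPM + 1), a scale that understates differences of low genes, with limma 3.58.1 in R 4.3.3 (eBayes with trend, two-sided, no covariate), adjusted over all 18893 genes by the Benjamini-Hochberg method and called at an adjusted p under 0.05. The fit was tested on simulated data in which genes varied independently of each other. That test does not cover variation that genes share, such as that of muscle RNA. TPM is a share, so a transcript that takes more of a library lowers the others. The p-values measure the spread between pools. Named in full were tested members with an unadjusted p under 0.05 or groups without overlap, the most abundant of each family and the muscle isoforms; from partner lists, up to 4 genes with the smallest p. The members, lists and tests were chosen with earlier results of these data known. Alternatives were other units, pseudocounts, filters, scalings and variance models, the replicate number as a block and single libraries left out. Some channel genes are included in the counts and sums but are not reported here by name.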

Additional observations from a re-analysis of the deposited data

How the results depend on the processing

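No channel gene was called under any of the 21 alternatives, and of the 33 tested genes 23 kept the sign of their difference in every one in which they could be fitted. The number of all genes called, 30, became 0 without the filter, 52 with quantile normalization, 16 without the trend, 309 with library weights, 0 without the 2 libraries richest in muscle RNA, and 0 to 70 with single libraries left out. The channel genes at an unadjusted p under 0.05, 7, became 11 with library weights, 4 to 11 with single libraries left out and 4 with the replicate block, under which 0 of all genes were called. Correlations of same-numbered deviations from the group means were -0.55, 0.19 and -0.41. With 3 libraries per group they cannot show whether the replicate numbers pair the samples. Among the partner lists 3 genes were called with library weights and 0 otherwise.

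Signs turned for Cacng6 (0.16 with a pseudocount of 0.1, 0.024 with 5), Cacna1s (0.074 with a pseudocount of 5), Cacng1 (0.081 with library weights), Cacng8 (0.038 without the 2 muscle-rich libraries) and Cacnb2 (-0.027 by trimmed mean of M values, -0.051 by quantile normalization, -0.16 with library weights, -0.15 without the 2 muscle-rich libraries). With single libraries left out the log2 difference ran from -0.96 to 0.78 for Cacng6, -1.2 to 0.51 for Cacna1s, -1.32 to 1.09 for Cacng1, -0.15 to 0.33 for Cacnb2, -0.044 to 0.34 for Cacnb4, -0.23 to 0.049 for Cacng4, -0.13 to 0.055 for Cacng7, -0.21 to 0.14 for Cacng8, -0.20 to 0.13 for Cacna2d1 and -0.60 to 0.003 for Scn8a. From read depth, family shares moved to 41.6% for Scn3a in S156A, 72.9% for Scn3b in WT, 31.8% and 37.9% for Cacna2d1 and 43.3% and 45.7% for Cacnb3 in WT and S156A, so that Cacna2d2, and Cacnb1 in WT, led their families in place of Cacna2d1 and Cacnb3; the cause was not tested. The tables give no counts, so depth limits the low genes by an amount that is unknown.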
